A study of Homo sapiens with 6 samples.

Results

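The metallothioneins and the genes that answer to zinc were followed in HCT116 cells, a human colorectal cancer cell line, by RNA-seq of wild-type (WT) cells and of LSD1 KO cells. The genes were chosen by name, as 6 metallothioneins (MT1E, MT1F, MT1G, MT1M, MT1X and MT2A), the transcription factor gene MTF1 and the zinc exporter gene SLC30A1, which makes 8 of the 60240 genes listed. The comparison asked how the RNA of these genes differed between cells with and without LSD1, the histone H3K4 demethylase encoded by KDM1A. Each group had 3 libraries, numbered 1 to 3, and the labels list no metal treatment in either group. The LSD1 KO cells were made by transient transfection of a Cas9 plasmid directed at exon 1 of LSD1, puromycin selection and expansion of individual clones. The study states in general terms that its experiments had biological replicates. How many clones stand behind the 3 LSD1 KO libraries, and what a replicate was in this experiment, is not given in the sources used here, so p-values measure the spread between these libraries.

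Metallothioneins are small, cysteine-rich proteins that bind zinc and copper and also take up toxic metals such as cadmium. Free zinc activates MTF1, a zinc finger factor, which binds metal response elements in the promoters of metallothionein genes and of SLC30A1. SLC30A1 (ZnT1) carries zinc out across the plasma membrane, so the set spans a sensor, a buffer and an exporter of zinc. In the intestinal epithelium, metallothioneins are known to buffer the zinc and copper taken up from the diet.

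KDM1A (ENSG00000004487, chr1:23019468-23083689) was measured first, as the targeted gene. Its level was 231, 224 and 214 CPM (counts scaled to 1 common library size) in WT libraries 1 to 3, and 29.9, 27.6 and 27.8 CPM in LSD1 KO libraries 1 to 3. The LSD1 KO libraries kept 12.7% of the WT mean, and the groups did not overlap (log2 fold change -2.97, SE 0.15, edgeR adjusted p = 0.000451). Total counts ranged from 25379279 to 29186963 per library, and a floor of 3 counts per library corresponded to between 0.0994 and 0.114 CPM, which covers counting error only. Of 9 colorectal epithelial markers, 6 were above this floor in every library, among them EPCAM, KRT8 and CDX2, while CDX1 was at 0 in all 6 libraries and VIL1 and LGALS4 stayed under 0.5 CPM. The summed epithelial level was 2044 to 3820 CPM in WT and 2421 to 3160 CPM in LSD1 KO libraries. EPCAM (172.8 to 248.0 CPM in WT, 77.6 to 133.9 CPM in LSD1 KO) and KRT18 (396.2 to 667.2 and 348.3 to 374.6 CPM) were lower in every LSD1 KO library without overlap, as were 3.51% of all genes tested. The groups overlapped for KRT8, CDX2, CDH1 and KRT19. For each library number, CDH1 was lower in LSD1 KO and KRT19 was higher (548.1 to 1156 CPM in WT, 904.7 to 1460 CPM in LSD1 KO). Markers of other cell types were low, with the summed level of 6 fibroblast genes at 20.5 to 24.2 CPM in WT and 30.3 to 34.4 CPM in LSD1 KO libraries, nearly all from COL1A1. The summed level of 5 leukocyte genes was 17.2 to 20.4 CPM in WT and 23.2 to 34.2 CPM in LSD1 KO libraries, nearly all from CD68, while CD3E was at 0. CDH5 and VWF, the endothelial genes measured, summed to 0.303 to 0.895 CPM and 0.663 to 1.36 CPM. COL1A1 (20.4 to 23.9 CPM in WT, 30.1 to 34.0 CPM in LSD1 KO) and CD68 (16.1 to 19.6 and 22.1 to 32.6 CPM) were higher in every LSD1 KO library. Their groups did not overlap, as for 4.23% of all genes tested that were higher in LSD1 KO. All libraries are of 1 cultured cell line, and the presence of other cells was not tested. In bulk RNA, fewer cells of a type and less RNA per cell cannot be told apart.

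The core of the metal response element to which MTF1 binds was searched as TGCACNC or TGCGCNC, on both strands, in the 250 bases before each gene's start. The 2 spellings cannot match at the same place on the same strand, matches on opposite strands could overlap, and none did in the sequences shown. The promoters below are RefSeq sequences on GRCh38.p14, read 5′ to 3′ on the gene's strand and ending at the base before the start, with each match in capitals (a match on the opposite strand reads as its reverse complement). They are shown because zinc signalling to the metallothioneins runs through this element, and because they let the levels below be read beside the promoters. MT2A (chr16:56608334-56608583, plus strand), MT1X (chr16:56682220-56682469, plus strand) and SLC30A1 (chr1:211579162-211579411, minus strand) were expressed. MT1H (chr16:56669564-56669813, plus strand) and MT1B (chr16:56651636-56651885, plus strand), from the same gene cluster, were at or near 0 counts. Sequences were held for 4 of the 8 genes, and not for MT1E, MT1F, MT1G and MT1M.
MT2A: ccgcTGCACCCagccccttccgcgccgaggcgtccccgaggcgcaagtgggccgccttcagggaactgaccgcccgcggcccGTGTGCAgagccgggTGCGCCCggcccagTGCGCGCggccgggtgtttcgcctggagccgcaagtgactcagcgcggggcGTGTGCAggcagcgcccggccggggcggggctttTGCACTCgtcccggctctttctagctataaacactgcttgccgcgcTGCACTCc
MT1X: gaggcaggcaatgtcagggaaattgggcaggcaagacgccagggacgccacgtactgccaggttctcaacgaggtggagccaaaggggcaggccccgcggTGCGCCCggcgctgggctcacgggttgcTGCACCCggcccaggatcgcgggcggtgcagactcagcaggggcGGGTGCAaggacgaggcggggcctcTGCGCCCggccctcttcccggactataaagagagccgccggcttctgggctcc
SLC30A1: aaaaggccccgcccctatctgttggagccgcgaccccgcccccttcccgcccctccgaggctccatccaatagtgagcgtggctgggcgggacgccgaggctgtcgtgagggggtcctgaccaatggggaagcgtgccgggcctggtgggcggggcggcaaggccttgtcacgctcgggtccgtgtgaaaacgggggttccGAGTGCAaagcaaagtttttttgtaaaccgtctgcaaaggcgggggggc
MT1H: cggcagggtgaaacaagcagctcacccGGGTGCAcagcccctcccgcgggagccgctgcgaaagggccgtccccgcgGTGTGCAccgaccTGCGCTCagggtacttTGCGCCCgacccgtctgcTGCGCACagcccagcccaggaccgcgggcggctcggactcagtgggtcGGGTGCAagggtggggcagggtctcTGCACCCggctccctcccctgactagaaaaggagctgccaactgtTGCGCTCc
MT1B: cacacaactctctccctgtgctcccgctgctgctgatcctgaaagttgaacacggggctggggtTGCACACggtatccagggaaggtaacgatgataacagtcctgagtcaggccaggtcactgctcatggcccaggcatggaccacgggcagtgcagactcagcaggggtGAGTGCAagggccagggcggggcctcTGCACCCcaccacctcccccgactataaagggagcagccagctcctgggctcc

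The MT2A promoter held 7 matches and the MT1X promoter held 4. In comparison, 24.8% of 35116 promoters of the same length held at least 1 match, 0.370% held at least 4 and 0.0313% held at least 7. The SLC30A1 promoter held 1 match, 49 bases before the start, and the MTF1 promoter (chr1:37859593-37859842, minus strand) held 0. MT1H, which had 0 counts in every library, held 8 matches, a number that 0.0171% of promoters reached, and MT1B held 3. The promoter of MT4, from the same cluster and not shown, held 3 matches, and MT4 had 0 counts in every library. A TATAAA box lay within the last 50 bases of the MT2A, MT1X, MT1B and MT4 promoters and of 2.63% of all promoters. It was absent there from the MT1H, MTF1 and SLC30A1 promoters. The number of matches was thus not ordered as the RNA levels were, and a match is a description of the letters and not of a bound site.

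The human metallothionein genes lie in a row on chromosome 16, in a stretch of 119 kb (chr16:56565073-56684196) that holds 16 of the genes and pseudogenes examined, 11 of them protein-coding. Of these 11, 4 passed the filter on low counts, namely MT2A (ENSG00000125148, chr16:56608584-56609497), MT1E (ENSG00000169715, chr16:56625781-56627112), MT1F (ENSG00000198417, chr16:56657959-56659303) and MT1X (ENSG00000187193, chr16:56682470-56684196). MT1M (ENSG00000205364, chr16:56632659-56633981) and MT1G (ENSG00000125144, chr16:56666730-56668065) had 0 counts in all 6 libraries, which allows up to 0.0994 to 0.114 CPM per library. MT4, the brain-enriched MT3, MT1A and MT1H were also at 0 in every library, and MT1B had 4 counts in WT library 2, 1 count in LSD1 KO library 2 and 0 in the others. Genes with and without counts alternated along the row, with MT1M just after MT1E, and MT1G and MT1H between MT1F and MT1X. Loss of LSD1 was not accompanied by detectable counts of any of the 6 coding genes that had 0 counts in WT cells.

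**Figure D1:**
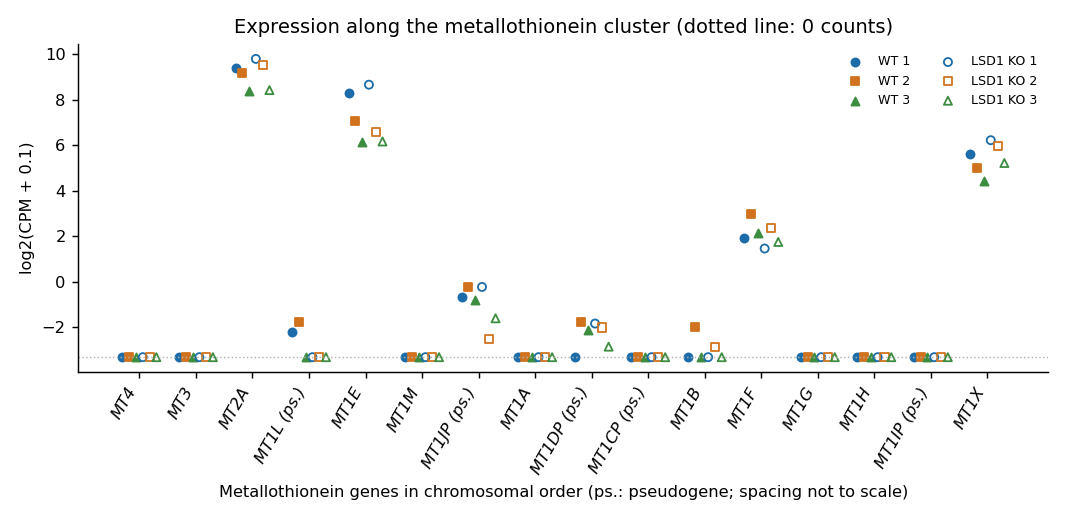
Level of each metallothionein gene or pseudogene on chromosome 16, in chromosomal order (x axis, not to scale), as log2(CPM + 0.1) (y axis). Each point is 1 library, filled for WT and open for LSD1 KO, and the dotted line marks 0 counts. MT2A, MT1E, MT1X and MT1F stand above the other genes in every library of both groups, and MT1M and MT1G lie on the dotted line.

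The levels of the expressed genes were compared per kb of their canonical transcript, which is 401 bases for MT2A, 746 for MT1E, 404 for MT1X and 425 for MT1F. In WT libraries, MT2A was highest at 1319 ± 432 CPM per kb (SD, n = 3), followed by MT1E at 233 ± 173, MT1X at 84.8 ± 34.5 and MT1F at 12.3 ± 5.05 CPM per kb. SLC30A1 and MTF1 were lowest, at 5.33 ± 0.336 and 4.42 ± 0.973 CPM per kb. The ranges of MT1E (93.7 to 427) and MT1X (53.6 to 122) overlapped, as did those of SLC30A1 (5.03 to 5.69) and MTF1 (3.36 to 5.27). Within each WT library, however, MT1E was above MT1X and SLC30A1 was above MTF1, in 3 of 3 libraries for both pairs, and these differences were not tested. In LSD1 KO libraries the order of the means was the same for the metallothioneins, with 1637 ± 702 for MT2A, 256 ± 249 for MT1E, 144 ± 47.2 for MT1X and 8.53 ± 2.84 CPM per kb for MT1F. MT1E (96.1 to 544) and MT1X (91.9 to 185) overlapped there too, and MTF1, at 5.60 ± 1.26 CPM per kb, stood beside SLC30A1, at 5.41 ± 1.72. In LSD1 KO library 2, MT1X was above MT1E and SLC30A1 above MTF1, and in LSD1 KO libraries 1 and 3 both orders were the opposite. Before division by length, MT1E was above MT1X in LSD1 KO library 2 too (96.6 and 62.3 CPM). Their order per kb there depends on the 746 bases taken for MT1E, and which of its transcripts was expressed was not determined.

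The paralogs are alike enough that Salmon's division of reads among them is uncertain. Of all words of 31 bases in a gene's transcripts, 12.7% were shared with another gene for MT2A, 15.6% for MT1E, 20.3% for MT1X and 3.31% for MT1F. The share was larger for MT1G (23.3%) and MT1M (44.4%), which had 0 counts, and it was 1.87% for MTF1 and 0% for SLC30A1. Words of all annotated transcripts of a gene were pooled, so these shares are not like for like between genes. MT1F had 63 shared words of 1904 from 4 transcripts, and MT1M had 213 of 480 from 2. Most of the shared words of MT1X, 292 of 362, were shared with ENSG00000259827, which had 0 counts in every library. The summed level of the 6 metallothioneins, which does not depend on how reads were divided among these, was therefore taken along. It leaves out reads given to other genes and to pseudogenes. With all metallothionein genes and pseudogenes in the sum, the log2 ratio of the LSD1 KO to the WT mean was 0.2927, against 0.2936 without them.

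Differences between the groups were tested with edgeR's quasi-likelihood test across 17672 genes, with a call at an adjusted p under 0.1. Same-numbered libraries of both groups deviated together from their group means, so the fit with the replicate number as a block is given beside the fit without it. A pairing of the libraries is stated neither by the labels nor by the study. Pairs here are libraries that share a number. Without the block, 0 of the 6 genes tested were called and 0 had an unadjusted p under 0.05, where 0.00566% of all genes tested were called and 3.12% had an unadjusted p under 0.05. With the block, 1 of the 6, MT1X, was called higher in LSD1 KO cells, where 1.05% of all genes were called higher and 1.6% in either direction. DESeq2 called 0 of the 6 genes without the block, where it called 0.376% of all genes (0.225% higher and 0.15% lower). With the block DESeq2 called MT1X, where it called 2.53% of all genes higher and 1.68% lower, 4.21% in all. At an unadjusted p under 0.05 in the fit with the block there were 4 of the 6, against 13.4% of all genes. For none of the 6 genes did the groups stand apart without overlap, as they did for 7.74% of all genes tested.

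**Figure D2:**
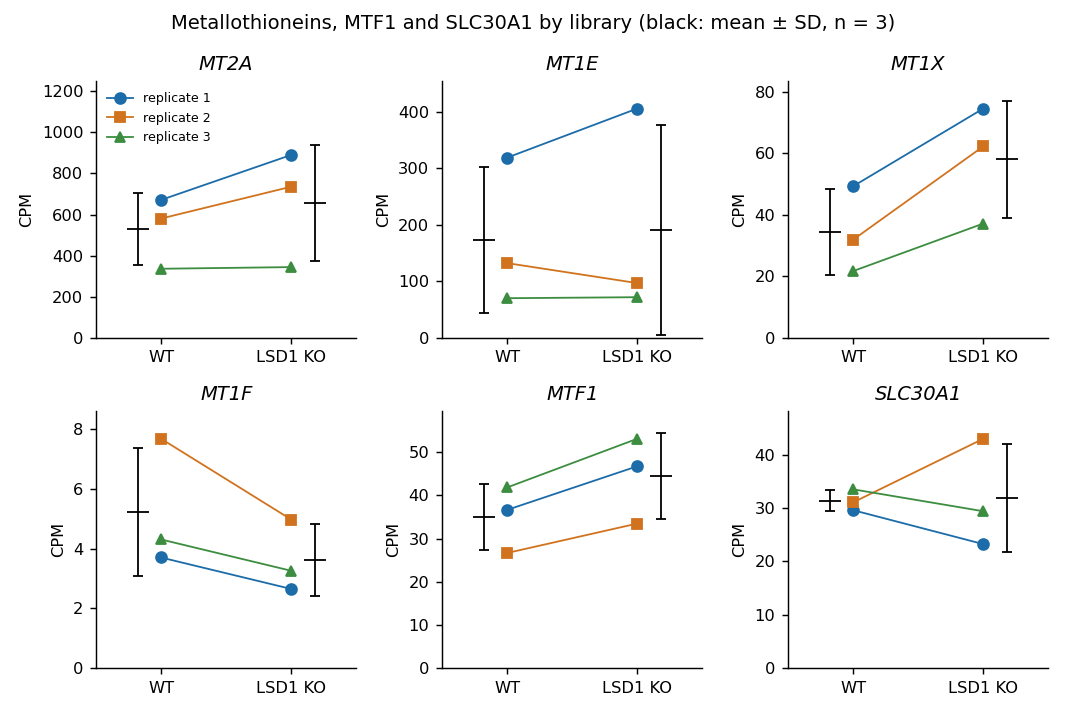
CPM (y axis, from 0, with a scale for each gene) of the 6 expressed genes in WT and LSD1 KO libraries. A line joins libraries that share a replicate number, and the black bars give the mean ± SD of each group (n = 3). MT1X, MTF1 and MT2A are higher in LSD1 KO in 3 of 3 pairs, MT1F is lower in 3 of 3, and MT1E and SLC30A1 go both ways.

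MT1X was the metallothionein that rose in LSD1 KO cells in the fit with the block. Its level was 49.3, 31.9 and 21.7 CPM in WT libraries 1 to 3, and 74.6, 62.3 and 37.1 CPM in LSD1 KO libraries 1 to 3. The groups overlapped, since LSD1 KO library 3 was below WT library 1, but within each number the LSD1 KO library was the higher one. The means were 34.3 ± 13.95 and 58.0 ± 19.1 CPM (SD, n = 3 each), a ratio of 1.69, and the ratios within pairs were 1.51, 1.95 and 1.71. The log2 fold change was 0.76 (SE 0.34) with an edgeR adjusted p of 0.999 without the block, and 0.78 (SE 0.10) with an edgeR adjusted p of 0.0198 with it. DESeq2 gave an adjusted p of 1.00 without the block and 2.72e-06 with it. Leaving out any 1 pair from the fit with the block kept MT1X called, with a log2 fold change between 0.67 and 0.87. When 1 library was left out without the block, the log2 fold change lay between 0.515 (without WT library 3) and 1.115 (without WT library 1). MT1X was called in none of these fits without the block.

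MT2A, the main metallothionein of most human tissues, was the most abundant member and did not pass the test. It stood at 670.9, 580.3 and 335.8 CPM in WT and at 890.3, 735.5 and 343.9 CPM in LSD1 KO libraries 1 to 3. Library 1 was highest and library 3 lowest in both groups, and the groups overlapped widely. The means were 529.0 ± 173.3 and 656.6 ± 281.6 CPM (SD, n = 3 each), with a log2 fold change of 0.31 (SE 0.37, edgeR adjusted p = 0.999). With the block it was 0.26 (SE 0.099, edgeR adjusted p = 0.306), and the log2 differences of the pairs were 0.41, 0.34 and 0.034. Leaving out 1 library without the block moved the log2 fold change to between 0.030 (without LSD1 KO library 1) and 0.62 (without LSD1 KO library 3), and leaving out 1 pair with the block to between 0.19 and 0.38.

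MT1E, an isoform gene of the MT1 group, varied most between libraries of 1 group among the 6 genes tested. Its level was 318.6, 132.0 and 69.9 CPM in WT and 405.6, 96.6 and 71.7 CPM in LSD1 KO libraries 1 to 3. The highest library was 4.56 times the lowest in WT and 5.66 times the lowest in LSD1 KO, and library 1 was highest in both groups. The log2 fold change was 0.14 (SE 0.71) without the block and -0.019 (SE 0.14) with it, with edgeR adjusted p of 0.999 and 0.970. The pairs differed by 0.35, -0.45 and 0.037 on the log2 scale, so they had no common direction.

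MT1F, the least abundant expressed metallothionein, was lower in LSD1 KO in every pair but was not called. Its level was 3.70, 7.68 and 4.31 CPM in WT and 2.65, 4.97 and 3.26 CPM in LSD1 KO libraries 1 to 3. Library 2 was highest in both groups, unlike for MT2A, MT1E and MT1X, and LSD1 KO library 2 exceeded WT libraries 1 and 3. The means were 5.23 ± 2.15 and 3.63 ± 1.21 CPM (SD, n = 3 each), and the log2 fold change was -0.53 (SE 0.38, edgeR adjusted p = 0.999). With the block it was -0.51 (SE 0.19, edgeR adjusted p = 0.308). Leaving out 1 library without the block moved it to between -0.84 (without LSD1 KO library 2) and -0.15 (without WT library 2), and leaving out 1 pair with the block to between -0.56 and -0.46. Among all genes tested, 17.5% were lower and 18.8% were higher in LSD1 KO in 3 of 3 pairs.

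MTF1 (ENSG00000188786, chr1:37809574-37859592), the zinc sensor that drives metallothionein transcription, differed by nearly the same amount in each pair without passing the test. Its level was 36.6, 26.6 and 41.8 CPM in WT and 46.8, 33.5 and 53.2 CPM in LSD1 KO libraries 1 to 3. Library 3 was highest and library 2 lowest in both groups, and the groups overlapped. The log2 differences within pairs were 0.35, 0.33 and 0.34, and the means were 35.0 ± 7.72 and 44.5 ± 10.0 CPM (SD, n = 3 each). The log2 fold change was 0.34 (SE 0.23, edgeR adjusted p = 0.999) without the block and 0.34 (SE 0.091, edgeR adjusted p = 0.164) with it. It lay between 0.17 (without WT library 2) and 0.49 (without LSD1 KO library 2) when 1 library was left out without the block, and between 0.33 and 0.34 when 1 pair was left out with it.

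SLC30A1 (ENSG00000170385, chr1:211571568-211579161), the zinc exporter controlled by MTF1, had close means in both groups and a wider spread in LSD1 KO cells. Its level was 29.6, 31.1 and 33.5 CPM in WT and 23.2, 43.0 and 29.4 CPM in LSD1 KO libraries 1 to 3. LSD1 KO library 2 was the highest and LSD1 KO library 1 the lowest of all 6, so the WT values lay within the LSD1 KO range. The means were 31.4 ± 1.98 and 31.9 ± 10.1 CPM (SD, n = 3 each), with a log2 fold change of 0.022 (SE 0.23) without the block and -0.020 (SE 0.16) with it, and neither passed the edgeR test.

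**Figure D3:**
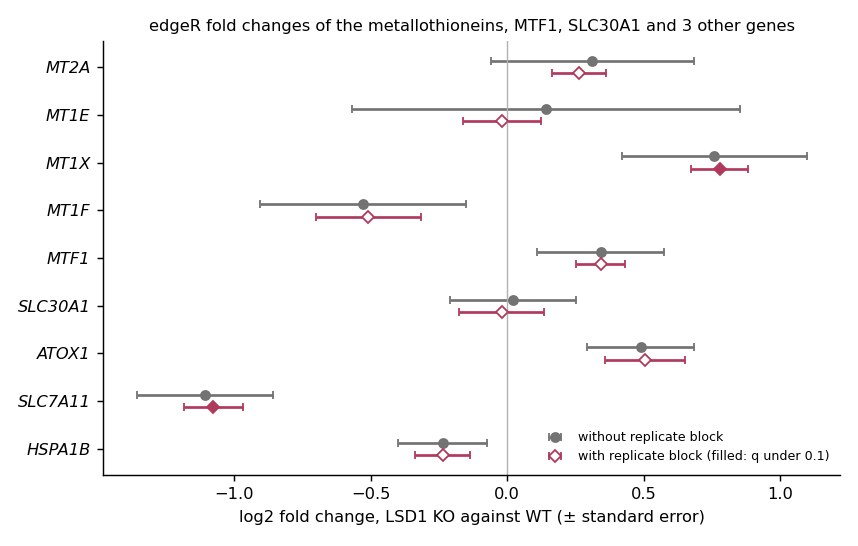
Log2 fold change of LSD1 KO against WT (x axis) with its standard error for the 6 expressed genes and for ATOX1, SLC7A11 and HSPA1B, from edgeR without (grey circles) and with (red diamonds) the replicate block. Filled diamonds mark an adjusted p under 0.1, which MT1X (0.78) and SLC7A11 (-1.08) reached.

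The replicate number took most of the spread of the metallothioneins. In a split of each gene's variance of log2 CPM, the replicate number took 97.3% for MT1E and 91.7% for MT2A, and the group took 0.0119% and 5.997%. For MT1X the replicate number took 56.2% and the group 42.3%, and for MT1F 72.4% and 26.7%. MTF1 was divided like MT1F, with 72.4% and 27.6%, and left 0.0213% to neither. SLC30A1 left 45.0% to neither, with 54.9% for the replicate number and 0.188% for the group. The medians of all genes tested were 69.0% for the replicate number and 8.85% for the group.

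The summed metallothionein level was 1042, 751.9 and 431.7 CPM in WT and 1373, 899.4 and 456.0 CPM in LSD1 KO libraries 1 to 3. In both groups library 1 was highest and library 3 lowest, 2.41 times apart in WT and 3.01 times in LSD1 KO, and the groups overlapped. The means were 742.0 ± 305.5 and 909.5 ± 458.6 CPM (SD, n = 3 each), a ratio of 1.23. Within pairs the LSD1 KO library was higher in 3 of 3, with log2 ratios of 0.40, 0.26 and 0.079 and a mean of 0.24, and no test was made on the sum. Without regard to pairs, the log2 ratio of the means was 0.29, and it turned to -0.13 without LSD1 KO library 1. When any other single library was left out, it lay between 0.020 (without WT library 3) and 0.62 (without WT library 1). The 6 summed metallothioneins took between 0.0446% and 0.138% of all counts of a library. MT2A and MT1E together made up 91.1% to 94.9% of the sum.

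Within the 6 summed metallothioneins, the share of MT1X did not overlap between the groups. MT1X gave 4.73% (95% Wilson interval 4.48 to 4.98), 4.24% (3.97 to 4.53) and 5.02% (4.66 to 5.41) of the metallothionein counts in WT libraries 1 to 3. In LSD1 KO libraries 1 to 3 it gave 5.43% (5.21 to 5.66), 6.92% (6.61 to 7.25) and 8.14% (7.67 to 8.65). The intervals cover counting error only, since sequenced reads are not independent molecules and the counts are estimates. All 3 LSD1 KO libraries were above all 3 WT libraries, with means of 6.83% ± 1.36 and 4.66% ± 0.394 (SD, n = 3 each). Dividing each gene's counts by the metallothionein total in the same way put all LSD1 KO libraries above all WT libraries for 0.153% of the 17672 genes, a background that is not like for like, because for genes outside the family the ratio also carries the spread of that total. This share was examined after the values had been seen, and it is given as a description. The shares of the other genes overlapped, with MT2A at 64.4%, 77.2% and 77.8% in WT and 64.8%, 81.8% and 75.4% in LSD1 KO libraries. MT1E gave 30.6%, 17.6% and 16.2% in WT and 29.5%, 10.7% and 15.7% in LSD1 KO libraries, highest in library 1 of both groups. MT1F stayed at 0.193% to 1.02%.

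**Figure D4:**
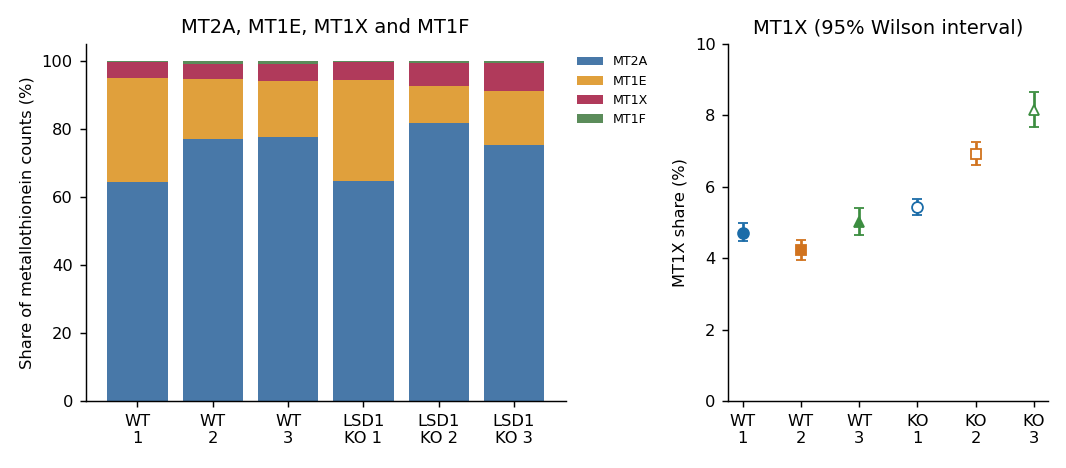
Left, share of the metallothionein counts of each library (y axis, percent) taken by MT2A, MT1E, MT1X and MT1F. Right, the share of MT1X with its 95% Wilson interval (counting error only), filled for WT and open for LSD1 KO, which is 4.24% to 5.02% in WT and 5.43% to 8.14% in LSD1 KO libraries.

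Genes whose profile over the 6 libraries was most like that of the summed metallothionein level were sought by the root mean square difference of centred log2 CPM, over 14794 genes. The nearest were ATP5F1E (0.195), a subunit of ATP synthase, ENSG00000196656 (0.207), SEC61G (0.228), a subunit of the protein translocation channel, COPS9 (0.242), of the COP9 signalosome, and RPS2P5 (0.244). Their canonical transcripts are 3610, 348, 425, 418 and 879 bases long, in that order. The median difference of all genes was 0.660. ATP5F1E stood at 103.1, 97.8 and 57.3 CPM in WT and 141.0, 90.3 and 60.2 CPM in LSD1 KO libraries 1 to 3, so its libraries fell in the same order within each group. MT2A, which is most of the sum, differed from it by 0.133, MT1X by 0.325 and MT1E by 0.530, while SLC30A1 (0.734), MTF1 (0.751) and MT1F (0.847) differed from it by more than the median gene. As metallothionein transcripts are short, genes with a canonical transcript of 500 bases or less, 218 of the 14794, were set beside them. This length was chosen after the values had been seen. The median centred log2 CPM of the 218 genes was 0.025, 0.027 and -0.079 in WT and 0.15, -0.035 and 0.038 in LSD1 KO libraries, against 0.46, -0.013 and -0.81 and then 0.86, 0.25 and -0.73 for the summed metallothioneins. The part of transcript length in the metallothionein levels was tested only through the correction for length and GC content, under which the log2 fold change of MT1X was 0.72 with the block (edgeR adjusted p = 0.0230).

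Other genes of metal handling were described by list. Of 15 other metallothionein genes and pseudogenes, 8 were at 0 in every library and 1, the pseudogene MT1JP, passed the filter on low counts. The counts of MT1JP were 14, 20 and 14 in WT libraries 1 to 3, against 21, 2 and 6 in LSD1 KO libraries 1 to 3, its groups overlapped, and it was not called in either edgeR fit.

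The zinc transporters of the SLC30 and SLC39 families, which export zinc from the cytosol and import it, held no called gene. Among the other zinc exporters, 7 of 10 were tested and 0 were called in either edgeR fit, with a median log2 fold change of 0.025 without the block and 0.024 with it. Among the zinc importers, 11 of 14 were tested and 0 were called, with medians of -0.030 and -0.019. The medians of all genes tested were 0.00082 and 0.0030. With the block, 1 of the 7 exporters and 3 of the 11 importers had an unadjusted p under 0.05, against 13.4% of all genes. The groups did not overlap for 1 exporter, SLC30A10, a manganese exporter, which was higher in LSD1 KO, as 4.23% of all genes were without overlap, and whose level was under 1 CPM in every library.

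**Figure D5:**
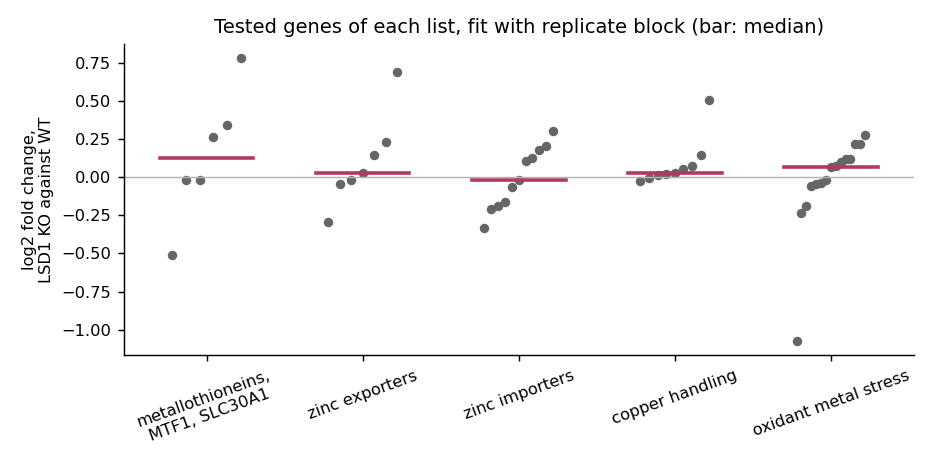
Log2 fold change of LSD1 KO against WT (y axis) of the tested genes of each list, from edgeR with the replicate block. Each point is 1 gene and the red bar is the median of the list, which is 0.12 for the metallothioneins with MTF1 and SLC30A1, 0.024 for the other zinc exporters and -0.019 for the zinc importers.

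Of 9 copper handling genes, all were tested and 0 were called, with a median log2 fold change of 0.019 without and 0.029 with the block. The groups did not overlap for 1 of them, ATOX1, the chaperone that hands copper to the copper-exporting ATPases, against 4.23% of all genes that were higher in LSD1 KO without overlap. ATOX1 stood at 16.4, 22.2 and 15.0 CPM in WT and 27.4, 23.7 and 24.0 CPM in LSD1 KO libraries 1 to 3, with LSD1 KO library 2 not far above WT library 2. Its log2 fold change was 0.49 (SE 0.20) without the block and 0.50 (SE 0.15, edgeR adjusted p = 0.195) with it.

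Of 15 genes of the oxidant and metal stress response, 0 were called without the block and 1, SLC7A11, was called lower with it, where 0.549% of all genes were called lower. The median log2 fold change of the list was 0.011 without and 0.065 with the block. SLC7A11, the cystine importer that feeds glutathione synthesis, stood at 141.5, 75.9 and 97.3 CPM in WT and at 58.9, 43.0 and 44.2 CPM in LSD1 KO libraries 1 to 3. All LSD1 KO libraries were below all WT libraries, as for 3.51% of all genes, and the mean fell from 104.9 ± 33.4 to 48.7 ± 8.86 CPM (SD, n = 3 each). Its log2 fold change was -1.11 (SE 0.25, edgeR adjusted p = 0.587) without the block and -1.08 (SE 0.11, edgeR adjusted p = 0.00923) with it, and DESeq2 without the block gave an adjusted p of 0.0197. HSPA1B, a stress-induced HSP70 gene, also had groups without overlap, at 402.2, 451.6 and 382.2 CPM in WT and 382.2, 326.6 and 340.9 CPM in LSD1 KO libraries 1 to 3. WT library 3 and LSD1 KO library 1 differed by less than 0.1 CPM, and HSPA1B was not called (log2 fold change -0.24, edgeR adjusted p = 0.361 with the block). Its division of reads with the near-identical HSPA1A is uncertain.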

How the data were processed

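Expected counts, rounded to whole numbers per gene and unscaled, were deposited by the authors for 3 WT and 3 LSD1 KO libraries of HCT116 cells. Per the labels and the study's methods, the authors trimmed the reads with Trimmomatic 0.39 and quantified them with Salmon 1.4.0 against the GENCODE transcriptome on GRCh38. The step from transcripts to genes is not given in the sources used here. Counts were compared with edgeR 4.0.16 in R 4.3.3 (TMM, filterByExpr by group, quasi-likelihood test, Benjamini-Hochberg adjustment over 17672 genes, call at an adjusted p under 0.1). CPM are counts divided by the TMM-scaled library size and multiplied by 1e6. DESeq2 1.42.0, with its Wald test, was an alternative, beside other scaling, no filter, length and GC offsets (known for 98.8% of genes) and leaving out libraries. Library numbers are shared between groups. The deviations of same-numbered WT and LSD1 KO libraries from their group means correlated across genes at 0.553, 0.553 and 0.404, all above 0.1. Libraries of unlike number correlated at -0.516 to 0.0454. The numbers were therefore taken to pair the libraries, and blocked values are given. This pairing was inferred from the same counts that were tested, and it is not stated by the labels or the study.

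The genes and gene lists were chosen with earlier results of these data known. All 8 genes are given in full. From each list, genes were named that had an adjusted p under 0.1 in either edgeR fit, or whose groups did not overlap at a mean of at least 1 CPM, with at most 5 per list. The 5 genes most like the summed metallothionein level were named too. SLC30A10, MT1JP, marker genes and the cluster genes were named outside the rule, after their values were seen. Symbols were matched for 58395 of 60240 identifiers. Positions and promoters came from RefSeq (GRCh38.p14). Canonical lengths and shared words of 31 bases came from GENCODE v44lift37. Steps were tested on simulated data. Motifs were searched in Python 3.11.15 with numpy 2.4.6 and scipy 1.17.1, and figures drawn with matplotlib 3.10.9.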

Additional observations from a re-analysis of the deposited data

How the results depend on the processing

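Of the 6 genes tested, 0 were called without the replicate block, and 1, MT1X, with the block, with DESeq2 and the block, and with length and GC offsets and the block. Leaving out libraries gave 0 to 1. Of the other genes of metal handling, 0 were called in the main edgeR fit, which has no block. In other fits 1, SLC7A11, was called. These were 2 fits without the block, edgeR without the filter and DESeq2, and the fits with the block by edgeR, by DESeq2 and with the offsets. Leaving out libraries gave 0 to 4, the 4 coming from the block without replicate 2, which added ATOX1, FTL and NQO1 as higher. In the pairing by replicate number, the log2 fold change of MT1E turned to -0.019 with the block, -0.024 with DESeq2 and the block and -0.054 with the offsets and the block, against 0.14 without it. SLC30A1 turned to -0.020, -0.026 and -0.049 under the same fits, against 0.022. Leaving out 1 library without the block gave -1.04 (LSD1 KO library 1) to 0.92 (WT library 1) for MT1E and -0.27 (LSD1 KO library 2) to 0.21 (LSD1 KO library 1) for SLC30A1. Leaving out 1 pair with the block gave -0.21, 0.18 and -0.045 for MT1E and 0.14, -0.29 and 0.067 for SLC30A1, for pairs 1 to 3. The log2 ratio of the summed metallothionein level was 0.29, and -0.13 to 0.62 when 1 library was left out. Between the main edgeR fit and the same fit with the block, the calls of MT1X and SLC7A11 were the only ones among these genes to change. The causes were not tested.

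MT2A, MT1E and MT1X had at least 654 counts in every library, while MT1F had 74 to 203, and each group had 3 libraries, those of LSD1 KO from a number of clones that is not given in the sources used here. For MT1G and MT1M, 0 counts set an upper limit and not an absence.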

Other observations

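Among the genes of the oxidant and metal stress list, the near-identical pair HSPA1A and HSPA1B had unlike profiles. HSPA1A stood at 0.491, 5.15 and 3.28 CPM in WT and 0.572, 4.27 and 4.13 CPM in LSD1 KO libraries 1 to 3, lowest in library 1 of both groups, where MT2A and MT1E were highest. FTH1, the heavy chain of the iron store ferritin, stood at 1667, 2657 and 1821 CPM in WT and 1338, 3068 and 1784 CPM in LSD1 KO libraries 1 to 3, highest in library 2 of both groups. HMOX1, which degrades heme, stood at 16.8, 25.6 and 22.1 CPM in WT and 20.9, 41.8 and 19.2 CPM in LSD1 KO libraries 1 to 3, and LSD1 KO library 2, the highest for HMOX1 and FTH1, was also the highest for SLC30A1. None of the 3 genes was called in either edgeR fit. They were chosen after their values had been seen.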
